A study of Mus musculus with 21 samples.

Results

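Total RNA of wild-type mouse spermatozoa was compared with that of wild-type condensing spermatids, the preceding stage of male germ cell maturation, in 5 of the 21 libraries of the series. There were 3 libraries of condensing spermatids and 2 of spermatozoa, all labelled H2al2 WT (the unmodified gene of the histone variant H2A.L.2) and all chosen by their labels. The series also holds round spermatids, pachytene spermatocytes and H2al2 KO cells, of which 3 wild-type libraries each of the first 2 stages are used below, with the single H2al2 KO spermatozoa library and 3 H2al2 KO condensing spermatid libraries. Strain and age of the mice, the number of animals behind a library and how the spermatozoa were obtained are not given in the sources used here. The labels give testis as the tissue of every library, and, although the study describes its replicates as biological, the sources used here do not tie each library to a mouse. P-values therefore measure the spread between these libraries.

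Counts on genes were 6482088, 6676636 and 5876464 in condensing spermatids and 3450580 and 2772995 in spermatozoa, so the spermatozoa values rest on fewer reads. A gene with 0 reads in both spermatozoa libraries could still have been present at up to 0.489 normalized CPM (read counts per 1e6 gene counts, after TMM scaling of the libraries), the level that 3 reads over both libraries give, and at up to 0.157 over the 3 condensing libraries. Reads aligned to more than 1 place, which were not counted, made up 15.5% and 15.4% of the reads in spermatozoa and 4.3% to 4.8% in condensing spermatids.

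Germ cells transcribe heavily after meiosis, and as the nucleus condenses, histones give way to transition proteins and then to protamines, and transcription stops. Many mRNAs of haploid cells are therefore made early, stored and translated days later, while the cytoplasm and most of its RNA are shed as the residual body. The RNA found in mature sperm is taken to be what remained of these stores, together with whatever the cell acquired on its way through the male tract. A collected sperm suspension can also hold other cells of that tract, and in bulk libraries fewer cells of a type and less RNA per cell cannot be told apart.

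Promoter sequences are shown for 4 genes that come on in haploid cells, because such promoters often carry a cAMP response element, the site that the testis activator CREM uses. The 150 bases before the RefSeq start are given 5′ to 3′ on the gene's strand (GRCm38.p6; the first listed start where there are several), with matches to TGANNTCA, which reads the same on both strands, in capitals. *Prm1* (chr16:10796824-10796973, minus strand), *Tnp1* (chr1:73015900-73016049, minus strand) and *Akap4* (chrX:7067365-7067514, plus strand) were lower in spermatozoa, and *Hk1* (chr10:62379909-62380058, minus strand) was higher. The call of *Hk1* did not hold in several alternatives, and its direction turned in 1 of them, as given with the glycolysis genes.
Prm1: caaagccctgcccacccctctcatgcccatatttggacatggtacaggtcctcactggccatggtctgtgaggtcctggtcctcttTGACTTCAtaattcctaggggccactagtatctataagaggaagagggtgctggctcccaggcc
Tnp1: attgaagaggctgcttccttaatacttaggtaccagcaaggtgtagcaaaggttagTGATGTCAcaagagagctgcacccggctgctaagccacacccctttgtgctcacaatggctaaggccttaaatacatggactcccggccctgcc
Akap4: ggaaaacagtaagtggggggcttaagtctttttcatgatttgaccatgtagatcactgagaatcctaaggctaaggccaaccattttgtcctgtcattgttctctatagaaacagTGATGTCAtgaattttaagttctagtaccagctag
Hk1: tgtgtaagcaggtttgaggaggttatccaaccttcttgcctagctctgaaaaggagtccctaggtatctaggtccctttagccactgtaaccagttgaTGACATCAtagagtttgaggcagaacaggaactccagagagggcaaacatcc
The match began 64 bases before the start in *Prm1*, 94 in *Tnp1*, 35 in *Akap4* and 52 in *Hk1*. Of all 32851 promoters in the RefSeq table, 8.37% held such a match in the same window, and of 12033 tested genes with an entry, 9.17% did. Among 987 haploid-rising genes with an entry, defined below, the share was 27.4%, so the 4 promoters shown, all with a match, do not stand for the rest. It was 29.1% of the 760 whose RNA was lower in spermatozoa and 18.9% of the 106 whose RNA was higher, which describes these letters only.

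Most genes differed between the stages. Of 15116 genes tested, 5533 (36.6%) were higher in spermatozoa and 5412 (35.8%) lower at an adjusted p under 0.05 (edgeR's quasi-likelihood test, p-values adjusted after Benjamini and Hochberg), so that 72.4% were called, and 4330 (28.6%) and 3969 (26.3%) of the tested genes were called with a change over 2-fold. Any count of called members below has to be read against these shares. The libraries of the groups did not overlap for 12286 genes (81.3%), and the median log2 fold change of all tested genes was 0.

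Few genes with at least 10 reads in each condensing library were without any read in the spermatozoa libraries. Of 12862 genes with at least 10 reads in each condensing library, 99.6% had a read in spermatozoa, 266 had 3 reads or fewer there in all and 46 had none. Any read counted here, whatever its level or source, so the share does not show how much spermatid RNA was kept. The spermatozoa libraries also held RNA of other cell types, as given below. The part of those cells in this share was not tested. The 46 genes without a read were of low level in condensing spermatids. Most abundant among them was *Dmrtc1b*, with 7.03, 6.9 and 5.64 normalized CPM, followed by the transcription factor gene *Gata1*, known in the testis from Sertoli cells, with 6.58, 4.17 and 6.87. In the reverse direction, 85 of 12257 genes with at least 10 reads in each spermatozoa library had none in any condensing library, and these reached far higher levels, as with *Wfdc15b* at 325 and 279. The genes with no reads in one group were singled out after their values were seen.

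**Figure D1:**
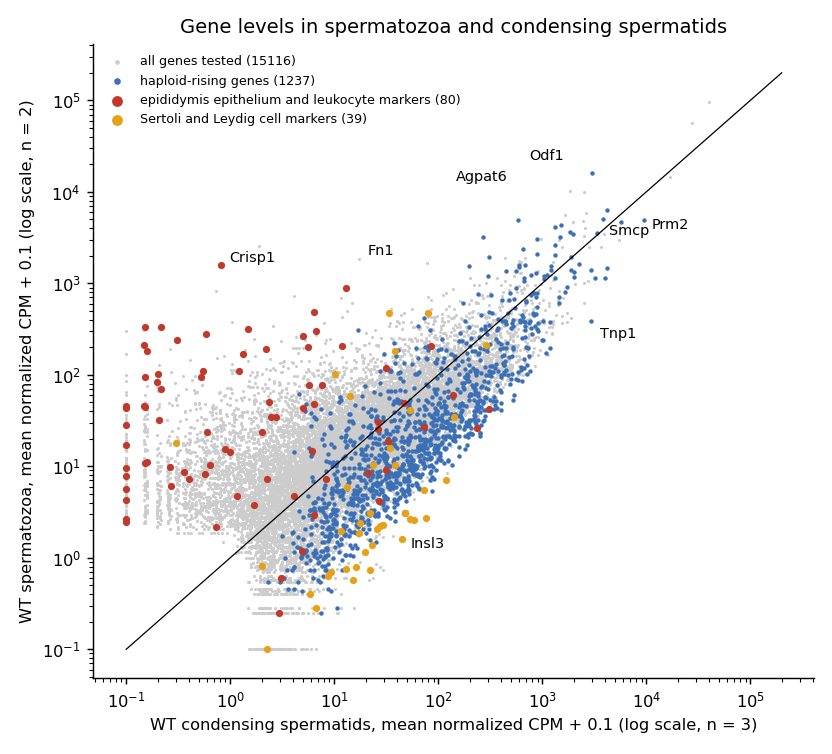
Mean normalized CPM in wild-type condensing spermatids (n = 3, horizontal) and spermatozoa (n = 2, vertical), both on log axes with 0.1 added, for the 15116 genes tested, with equal levels on the black line. Most of the 1237 haploid-rising genes (blue) lie below the line and *Odf1* far above it, while many epididymis epithelium and leukocyte markers (red) lie at the upper left. Of the red genes, 25 of 48 epididymis, 5 of 20 macrophage and 9 of 12 neutrophil and lymphocyte markers were under 10 reads in every condensing library. These passed the filter on low counts through the spermatozoa alone, which sets part of where they lie.

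To follow haploid germ cell RNA as a whole, genes were taken that were over 4-fold higher in round spermatids than in pachytene spermatocytes, with an adjusted p under 0.05 and at least 10 normalized CPM. This list comes from libraries other than the 5 compared and holds 1237 genes (9.44% of 13100 tested between those stages). All of them were tested in spermatozoa, where 946 (76.5%) were lower, 136 (11%) higher and 155 not called, with a median log2 change of -1.71 against 0.11 for the other genes. Over 4-fold changes were called for 515 downward and 25 upward. Yet these genes together held 21.7%, 20.9% and 26.2% of the counts in condensing spermatids and 19.3% and 17.7% in spermatozoa, against 3.49% to 5.6% in pachytene spermatocytes. The haploid share of the reads thus differed by far less than the median haploid gene. A small number of genes carried more of it, since the 20 haploid genes with most reads in a library held 26.9% to 28.5% of the haploid reads in condensing spermatids, and 44.3% and 44.6% in spermatozoa. Of the 100 most abundant haploid genes of each stage, 72 were shared.

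The highest of these was *Odf1*, which encodes a major protein of the outer dense fibres that stiffen the sperm tail (chromosome 15, 38219203 to 38226735). It had 2879, 2642 and 3494 normalized CPM in condensing spermatids and 16104 and 15783 in spermatozoa. Both spermatozoa libraries stood above every condensing library, and the fitted group level was 5.31-fold higher (log2 change 2.41, SE 0.21, adjusted p = 1.24e-09). *Odf1* ranked 15 in reads among all genes in condensing spermatids and 3 in spermatozoa, after *mt-Rnr2* and the ribosomal RNA precursor *Rn45s*. Per kilobase of exon (RPKM) it had a mean level of 14429 in spermatozoa and 2719 in condensing spermatids, where *Prm2* stood at 5490 and 10538.

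Other abundant RNAs were higher too. *Agpat6*, the gene of a glycerol-3-phosphate acyltransferase that starts glycerolipid synthesis (*Gpat4* in RefSeq), had 1688, 1708 and 2164 normalized CPM in condensing spermatids and 10506 and 9692 in spermatozoa, a log2 change of 2.45 (SE 0.2, adjusted p = 4.3e-10). The following were chosen after their values were seen, as examples of abundant haploid-rising genes that were higher. *5031439G07Rik*, a gene of unknown role, went from 242, 248 and 318 to 3332 and 3090, a log2 change of 3.57 (SE 0.18, adjusted p = 2.31e-13). The long noncoding RNA *Wbscr25* went from 557, 524 and 691 to 5240 and 4649, a log2 change of 3.07. *Phospho1*, which encodes a phosphatase of phosphocholine and phosphoethanolamine, changed by 2.68, *Azin2*, an antizyme inhibitor in polyamine control, by 1.86, and *Reep6*, a protein of the endoplasmic reticulum, by 1.14. In each of these genes the 2 spermatozoa libraries were above the 3 condensing libraries. All of them were also higher in condensing than in round spermatids on the mean, from 1179 to 1853 in *Agpat6* and from 334 to 590 in *Wbscr25*, as the plot of the 4 stages shows, which is a comparison of means without a test.

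**Figure D2:**
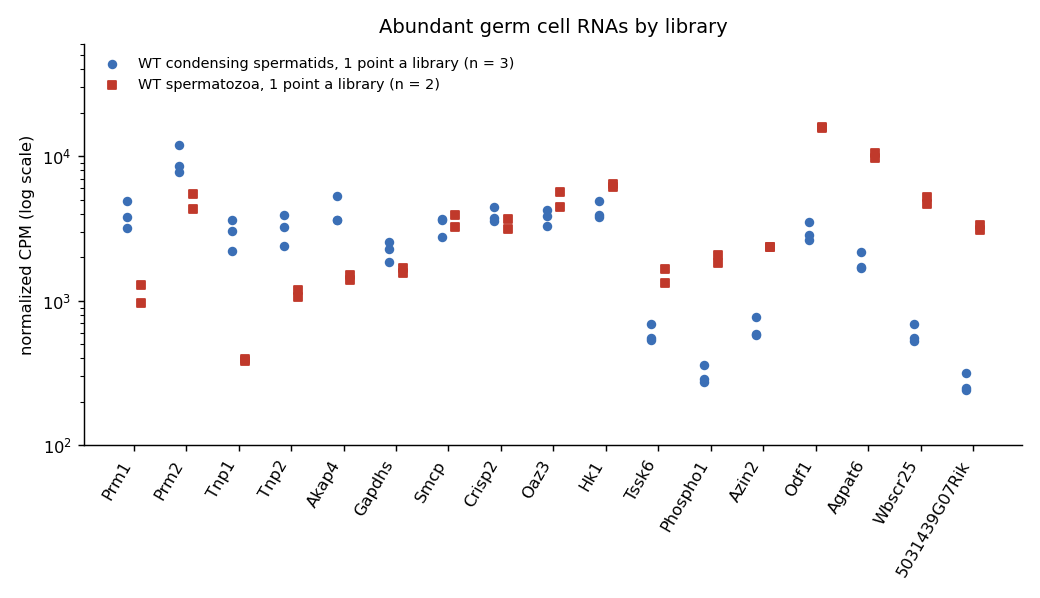
Normalized CPM (log axis) of 17 abundant germ cell genes, with 1 circle per wild-type condensing spermatid library (n = 3) and 1 square per wild-type spermatozoa library (n = 2). The squares lie below the circles from *Prm1* to *Gapdhs*, overlap with the circles for *Smcp* and *Crisp2*, and lie above the circles from *Oaz3* to *5031439G07Rik*.

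The RNAs of the proteins that package sperm DNA went the other way. All 5 protamine and transition protein genes were lower in spermatozoa, with a median log2 change of -1.71 (0 for all tested genes). *Tnp1*, the major transition protein, which is gone from the mature nucleus, had 3029, 2227 and 3652 normalized CPM in condensing spermatids and 398 and 381 in spermatozoa, 7.62-fold less (log2 change -2.93, SE 0.22, adjusted p = 1.77e-10). *Tnp2* went from 3243, 2381 and 3945 to 1197 and 1070 (log2 change -1.49). *Prm1* had 3831, 3194 and 4935 and then 1293 and 967 (log2 change -1.82, SE 0.22, adjusted p = 1.91e-07). *Prm2* was lower by the least, from 8527, 7757 and 11979 to 5522 and 4294 (log2 change -0.94, adjusted p = 0.000996), and still ranked 12 in reads in spermatozoa. Without the second spermatozoa library the call of *Prm2* was lost (adjusted p = 0.0689). *Prm1*, *Prm2*, *Prm3* and *Tnp2* lie side by side on chromosome 16, from 10787935 (*Tnp2*) to 10796823 (*Prm1*), and *Prm3* changed by -1.71.

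These directions are relative to the whole RNA of each library. With the libraries scaled instead so that the haploid-rising genes had a median of 0, which by construction moves every gene up by about 1.71 on the log2 scale, *Prm2* was 0.77 higher (adjusted p = 0.00265), *Tnp2* 0.21 higher and *Prm1* 0.11 lower (adjusted p = 0.316 and 0.609). The counts of the lists below depend on this choice too. With that scaling 6 of the 46 axoneme genes were lower and 14 higher, and 1 and 12 of the 20 glycolysis genes.

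Testis histone variants, which prepare the genome for protamines, were lower in 8 of 12 tested genes and higher in 1, with a median of -1.7. The linker histone gene *H1fnt* went from 645, 586 and 869 to 217 and 182 (log2 change -1.81), and the spermatid linker histone *Hils1* from 471, 463 and 583 to 102 and 103 (log2 change -2.3). *H2afb1*, as the files name the gene of H2A.L.2, had 189, 158 and 251 normalized CPM in condensing spermatids and 59 and 46.7 in spermatozoa, with no overlap (log2 change -1.91, SE 0.2, adjusted p = 1.92e-08). In H2al2 KO cells the same gene had 26.3, 35.9 and 29.9 in condensing spermatids and 14.7 in spermatozoa. The gene that was higher, *H2afv* (log2 change 0.74), is also used by somatic cells, and it was not called without the first spermatozoa library or with DESeq2.

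The sperm tail lists were mixed at the top and lower elsewhere. Of 18 tested genes of outer dense fibres and fibrous sheath, 15 were lower and 3 higher, the latter *Odf1*, *Gstm5* (log2 change 0.97) and *Ccdc136* (0.41). Only 2 were higher with no filter, with the GC and length trend removed, or without the first or second library of either stage. *Akap4*, the main fibrous sheath protein, had 3657, 3609 and 5345 normalized CPM and then 1519 and 1390 (log2 change -1.53, SE 0.21, adjusted p = 1.28e-06), the opposite direction to *Odf1*. The 15 lower genes of this list include *Cylc1* and *Cylc2*, for the cylicins of the perinuclear calyx, which is not part of the tail. They fell further than *Akap4*, by 3.19 and 3.37 on the log2 scale. Of 46 axoneme genes, 43 were lower with a median of -1.69, and 2 were higher. Among them the outer arm dynein *Dnah8* had most reads, with 2467, 2850 and 2286 and then 1069 and 963 (log2 change -1.32), and *Ccdc39* fell by 2.77. *Dnah7a* and *Spag16* were higher by 1.28 and 1.2.

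The mitochondrial sheath list had 14 of 17 genes lower (median -2.09) and 2 higher. *Smcp*, a cysteine-rich protein of the mitochondrial capsule, had 3602, 2749 and 3706 normalized CPM in condensing spermatids and 3925 and 3233 in spermatozoa. These ranges overlapped, and the log2 change was 0.09 with an SE of 0.19 (adjusted p = 0.674). *Spata19*, another protein of the midpiece mitochondria, went from 353, 307 and 435 to 49.2 and 38.4 (log2 change -3.05), while *Spata18*, a mitochondrial quality control factor, was 0.61 higher. Leaving out the first spermatozoa library ended the call of *Spata18* (adjusted p = 0.0856).

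Sperm run on glycolysis along the tail, with enzyme forms of their own. Of 20 genes of this list, 11 were lower, 5 higher and 4 not called (median -0.65). With the GC and length trend removed, 13 were lower and 3 higher. The hexokinase gene *Hk1*, the list's most abundant, had 3901, 3813 and 4937 normalized CPM and then 6489 and 6180 (log2 change 0.59, adjusted p = 0.00969), a call lost without the first or second library of either stage (adjusted p from 0.0605 to 0.103), and with the GC and length trend removed the log2 change was -0.22. *Gapdhs*, the sperm glyceraldehyde-3-phosphate dehydrogenase, was 0.47 lower (adjusted p = 0.026), a call likewise lost without the first condensing library (0.0816) or either spermatozoa library (0.113 and 0.22). The testis lactate dehydrogenase *Ldhc* fell from 2482, 2614 and 2405 to 616 and 606 (log2 change -2.03) and the lactate carrier *Slc16a7* by 2.64. The 5 that were higher were *Hk1*, *Eno1* (1.83), *Pgam1* (1.69), *Pkm* (0.67) and *Tpi1* (0.67), most of which somatic cells use as well. *Sord*, the sorbitol dehydrogenase that makes fructose, was also higher, with 2007, 2038 and 3831 and then 6126 and 5519 (log2 change 1.15, SE 0.23, adjusted p = 0.000171), as was *Pebp1*, a phosphatidylethanolamine-binding protein, by 1.74.

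Acrosome genes were lower in 32 of 33 cases (median -1.92) and none was higher. *Acr*, the gene of the protease acrosin, went from 145, 138 and 109 normalized CPM to 34.6 and 35.6 (log2 change -1.9, SE 0.18, adjusted p = 3.88e-09), and *Cst13* from 85.2, 77.4 and 100 to 4.47 and 6.11, which was the furthest fall on this list (log2 change -4.06). *Ace*, the angiotensin-converting enzyme with a germinal form, was its most abundant member and 1.24 lower. For fusion with the egg and its activation, 22 of 23 genes were lower, with a median of -2.27. *Izumo1*, the sperm ligand of the egg receptor Juno, had 50.6, 57 and 46.5 and then 8.64 and 6.82 (log2 change -2.72), and *Plcz1*, the phospholipase that starts calcium waves in the egg, had 414, 431 and 434 and then 110 and 96.3 (log2 change -2.05). *Calr3*, a testis calreticulin, fell by 3.69. *Crisp2* was the exception, with 3579, 3749 and 4459 and then 3712 and 3135, overlapping between the stages (log2 change -0.2, adjusted p = 0.352).

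Of 22 genes of the CatSper calcium channel and of ion transport, 16 were lower and 3 higher (median -1.61). *Catsper1*, a pore subunit, had 69.3, 71 and 65.2 normalized CPM and then 14 and 12.6 (log2 change -2.36, SE 0.19, adjusted p = 4.19e-10), and *Catsper3* fell by 3.15. The 3 that were higher, all under 10 reads in every condensing library, were *Trpv6* (6.14), the proton channel *Hvcn1* (5.78) and the anion exchanger *Slc26a3*, which had 1 read before and 41 and 21 reads after. *Trpv6*, a calcium channel of epididymal and other epithelia, had 0.459, 0.575 and 0.705 before and 36.1 and 48.8 after, and was near 0 in round spermatids as well (mean 1.04). Among 19 testis-specific kinases and phosphatases, 16 were lower and *Tssk6* alone was higher, from 539, 556 and 687 to 1653 and 1328 (log2 change 1.33, SE 0.17, adjusted p = 3.88e-07). *Tssk1*, its paralog, went from 245, 233 and 272 to 44.4 and 33 (log2 change -2.68).

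Genes of head shaping and the manchette, the microtubule sleeve of the elongating spermatid, were lower in 23 of 25 cases (median -1.61), with *Capza3*, an actin capping subunit, 3.16 lower. The machinery that stores germ cell mRNA was lower too, in 25 of 36 genes, with 5 higher (median -1.1). *Pabpc1*, the poly(A)-binding protein, had 2095, 2277 and 1779 normalized CPM and then 960 and 1009 (log2 change -1.06), and the RNA-binding protein gene *Dazl* 78.9, 81.4 and 74.6 and then 8.05 and 7.18 (log2 change -3.35). *Papolb*, the testis poly(A) polymerase, fell by 2.58, while *Msi2*, a Musashi protein, was 1.62 higher. Of 23 piRNA pathway genes, 18 were lower and 1 higher (median -1.52), with log2 changes of -1.89 in *Tdrd6* and -3.11 in *Gtsf1l*.

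For the removal of cytoplasm by ubiquitin and autophagy, 23 of 42 genes were lower and 11 higher (median -0.45). *Klhl10*, a spermatid substrate adaptor of the ubiquitin ligase, rose from 667, 598 and 769 normalized CPM to 1677 and 1478 (log2 change 1.22, SE 0.16, adjusted p = 9.44e-07), and *Sqstm1*, the autophagy receptor p62, from 39.9, 38.7 and 32.3 to 166 and 197 (log2 change 2.29). Leaving out the first spermatozoa library cut the 11 to 6. The antizyme gene *Oaz3* had 3860, 3305 and 4280 and then 5654 and 4453, so that both spermatozoa libraries were above the condensing ones but the gene was not called (log2 change 0.41, adjusted p = 0.0656; 0.000218 with the replicate block). Of 48 proteasome genes, 20 were lower and 15 higher (median -0.2), against 35.8% and 36.6% of all tested genes. Of these 48, 3 were under 10 reads in every condensing library and 1 in both spermatozoa libraries. *Psme4*, the activator PA200 that serves histone removal in spermatids, and the inhibitor *Psmf1* were among the genes called lower, by 1.77 and 2.11 on the log2 scale. The immune subunit *Psmb9*, among the genes called higher, went from 0.612, 0.288 and 0 to 5.07 and 7.54. It had only 4, 2 and 0 reads before and 17 and 21 after, and so passed the filter on low counts through the spermatozoa alone.

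Markers of earlier germ cells were mostly lower. That held for 18 of 19 round spermatid markers (median -2.68) and 23 of 29 spermatocyte markers (median -1.87), of which 2 and 3 were under 10 reads in both spermatozoa libraries. Spermatogonium markers summed to 477, 436 and 317 normalized CPM in condensing spermatids and 179 and 174 in spermatozoa. *Sycp3*, of the synaptonemal complex, went from 78.3, 105 and 74.2 to 8.64 and 6.11 (log2 change -3.52). *Syce2*, another gene of that complex, was higher, from 252, 232 and 314 normalized CPM to 837 and 639 (log2 change 1.48). Its mean was also higher in round spermatids (183) than in pachytene spermatocytes (49.5), so here it does not mark spermatocytes.

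**Figure D3:**
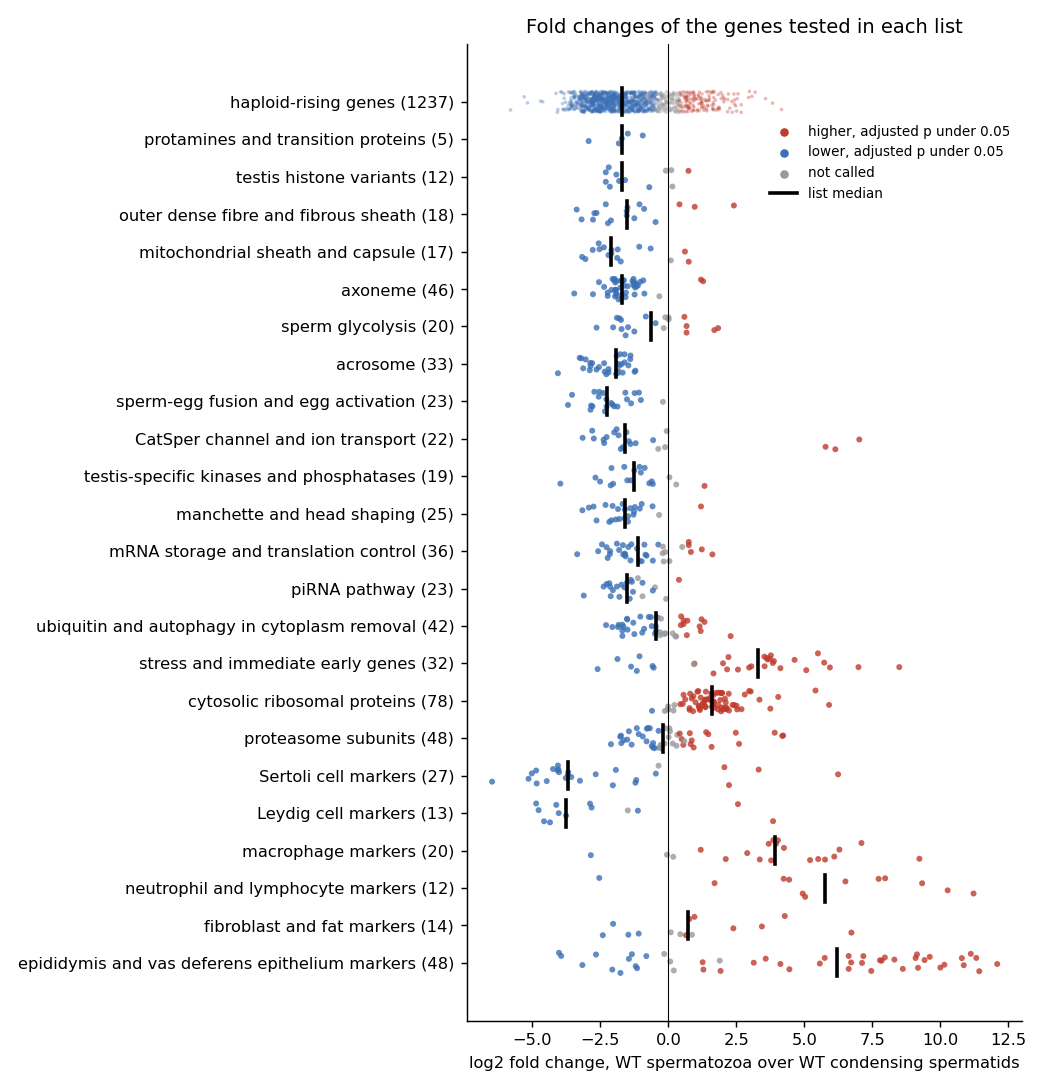
Log2 fold change of spermatozoa over condensing spermatids for each tested gene of 24 lists (number tested in parentheses), higher calls in red, lower in blue and others in grey, with each list's median as a bar. The lists of sperm structure and function from protamines to piRNA have medians between -0.65 and -2.27, and the ribosomal protein list one of 1.6. Of the genes plotted, 25 of 48 epididymis, 5 of 20 macrophage, 9 of 12 neutrophil and lymphocyte and 4 of 32 stress genes were under 10 reads in every condensing library, and 13 of 27 Sertoli and 7 of 13 Leydig markers in both spermatozoa libraries, so that low counts in one group set part of where these lists lie.

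RNA of other cell types differed strongly between the stages. *Crisp1*, a secreted protein of the epididymal epithelium that coats sperm, had 0.306, 0.431 and 1.41 normalized CPM in condensing spermatids and 1514 and 1620 in spermatozoa, a log2 change of 11.12 (SE 0.28, adjusted p = 1.36e-17). *Gpx3*, a secreted glutathione peroxidase that was picked after its values were seen, went from 2.45, 1.15 and 1.76 to 2434 and 2627. *Spink8* and *Adam7*, both known from the epididymis, had 1 and 2 reads over the 3 condensing libraries and 332 and 339, and 317 and 343, normalized CPM in spermatozoa. *Wfdc15b*, with no read before, was at least 1932-fold higher, and *Prom2*, an epithelial membrane protein, had 1 read before and 272 and 342 normalized CPM after. The 92 listed genes of epididymal and vas deferens epithelium summed to 879, 769 and 916 normalized CPM in condensing spermatids, most of it in genes that round spermatids also expressed, such as *Cst8* and *Mt1*, and to 4650 and 4918 in spermatozoa, with *Crisp1* the most abundant. In condensing spermatids 43 of the 92 were at 0. In spermatozoa 22 were at 0, among them the lipocalins *Lcn5*, *Lcn8* and *Lcn9*, which mark the first part of the epididymis and were at 0 in condensing spermatids too. Of the 92, 48 passed the filter on low counts, 25 of them through the spermatozoa alone (under 10 reads in every condensing library), so no direction is read from a count over those tested. Some members were lower, among them *Cst8*, from 219, 198 and 296 to 29.5 and 23.3 (log2 change -3.16), and *Cst12*, which is also on the Sertoli list, from 59.8, 40 and 43.9 to 2.68 and 3.23 (log2 change -4.02).

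Leukocyte markers also summed to more in spermatozoa. The 22 macrophage markers in the files summed to 399, 328 and 489 normalized CPM in condensing spermatids and 2837 and 2655 in spermatozoa. The list's most abundant gene, *Cd74*, the invariant chain of class II antigen presentation, had 20.3, 6.04 and 12.7 and then 918 and 861 (log2 change 6.1, SE 0.27, adjusted p = 4.26e-14). *Aif1* of this list was lower, from 276, 258 and 390 to 48.6 and 36.3, and with a mean of 443 in round spermatids it is not particular to macrophages here. Of 21 neutrophil and lymphocyte markers 7 were at 0 in all condensing libraries, among them *S100a8*, *S100a9* and *Elane*. The list summed to 11, 8.2 and 10.2 before and 781 and 832 after, with *Ptprc*, the common leukocyte antigen, at 3.67, 0.431 and 2.29 and then 196 and 191. *Cd79a* of B cells and *Ltf* had 1 read each before and 84.3 and 105, and 172 and 196, after. On the list of fibroblast and fat genes, fibronectin *Fn1* had 19, 17.8 and 15 and then 1883 and 1794 (log2 change 6.73). Without it the list summed to 260, 194 and 248 before and 184 and 185 after, and the matrix gene *Sparc* was lower, from 140, 112 and 136 to 26.5 and 37.4 (log2 change -2.03). Of 32 stress and immediate early genes, all of which were tested, 24 were higher and 7 lower, and 4 of them were under 10 reads in every condensing library. Their summed level was close in both stages, 2779, 2710 and 2961 before and 2761 and 2917 after, although the list's median log2 change was 3.29. Within this sum the germ cell chaperone *Hspa1l* went from 1054, 986 and 1554 to 194 and 200 (log2 change -2.6). *Atf3* of the same list went from 0.306, 0 and 0.881 to 48.6 and 50.6, and *Egr2* had 1 read before and 26.2 and 29.1 after. The chemokine gene *Cxcl2*, on none of these lists and at 0 before, was at least 1089-fold higher at 188 and 153. The part of these other cells in the rest of the differences was not tested.

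Several markers of testis somatic cells were lower instead. The 30 Sertoli cell markers summed to 1279, 987 and 1257 normalized CPM in condensing spermatids and 729 and 679 in spermatozoa. The Leydig hormone *Insl3* had 41.1, 35.2 and 59 normalized CPM in condensing spermatids and 2.98 and 0 in spermatozoa (log2 change -4.77, adjusted p = 3.42e-09), and the steroid enzyme *Cyp17a1*, named after its values were seen, 52.1, 41.6 and 67 and then 2.98 and 2.16. *Tsx*, known from Sertoli cells, went from 20.2, 16 and 29.8 to 0.894 and 0.359. Some of the largest falls of all were in genes at 1 or a few reads in spermatozoa, such as *Lpar3* (17.7, 14.1 and 14.8 before), *Lamc3* (37.2, 19.4 and 30.5), *Akr1cl* (21.9, 19.4 and 41.1) and the haploid-rising phosphatase *Dusp21* (9.48, 9.92 and 12). The abundant Sertoli marker *Clu* was 0.46 lower, a call that ended without the second spermatozoa library (adjusted p = 0.231). Among the markers that were higher, *Trf* (3.32), *Vim* and *Wnt4* on the Sertoli list, and *Ptgds* (3.85) and *Aldh1a1* (2.56) on the Leydig list, are also expressed in other tissues, and through the last 2 the Leydig list summed to more in spermatozoa, 956 and 1000 against 388, 296 and 446.

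**Figure D4:**
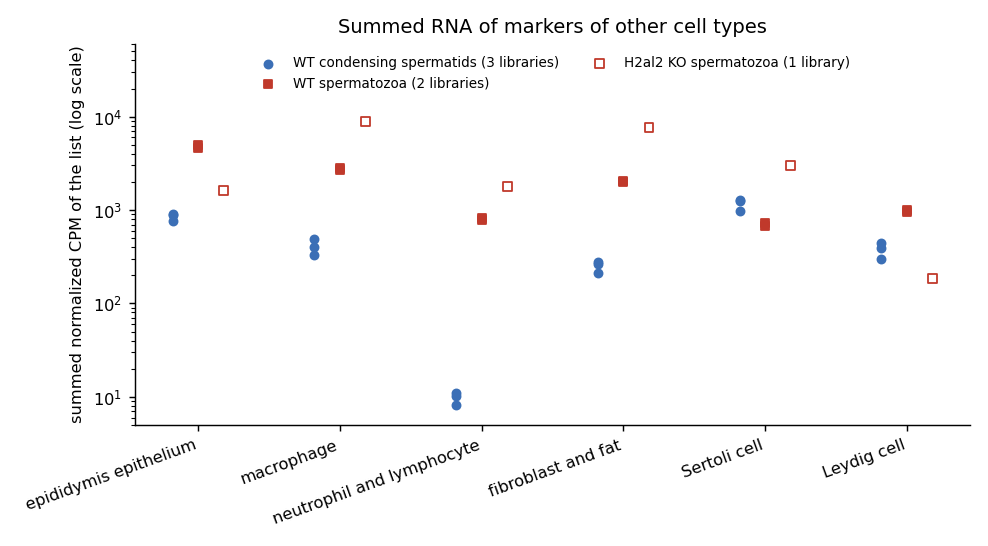
Summed normalized CPM (log axis) of 6 lists of other cell types, by library, for wild-type condensing spermatids (circles), wild-type spermatozoa (filled squares) and the H2al2 KO spermatozoa library (open square). Leukocyte sums are higher in all 3 spermatozoa libraries, and the epididymis sum is 4650 and 4918 in wild type and 1631 in the KO library.

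Cytosolic ribosomal protein genes were higher in 71 of 78 cases and lower in 1 (median 1.6), and summed to 9005, 8369 and 8916 normalized CPM in condensing spermatids and 26566 and 25353 in spermatozoa. *Rpl41*, the most abundant, went from 549, 476 and 587 to 1262 and 1127 (log2 change 1.15). The X-linked *Rps4x* and *Rpl10* moved most, from 10.9, 8.92 and 14.6 to 676 and 699 (log2 change 5.91), and from 13.2, 11.5 and 19 to 667 and 567 (log2 change 5.41). Their means were 4.03 and 6.69 in round spermatids, in which the X chromosome is largely silent. *Rpl10l* and *Rpl39l*, autosomal copies that germ cells use in place of X-linked genes, fell by 1.55 and 1.72, and were named after their values were seen.

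Structural and mitochondrial RNAs took a large part of the spermatozoa reads. *Rn45s*, the ribosomal RNA precursor, which the library preparation was meant to deplete, had 3.37%, 2.35% and 2.59% of gene counts in condensing spermatids and 5.14% and 6.08% in spermatozoa (log2 change 1.04, adjusted p = 0.00112). The mitochondrial ribosomal RNA *mt-Rnr2* was higher by 1.27 on the log2 scale, while *mt-Rnr1*, from the same transcript, had 18964, 12224 and 18966 normalized CPM and then 13124 and 16101, overlapping between stages (adjusted p = 0.483). *COX1* was 1.99 higher, and of 12 tested mitochondrially encoded genes 6 were higher and *ND2* lower (log2 change -0.56, adjusted p = 0.0304), the latter a call that ended without the first condensing library or either spermatozoa library. Of 31 long and structural noncoding RNAs, 21 were higher, 5 lower and 5 not called. Of these 31, 4 were under 10 reads in every condensing library and 3 in both spermatozoa libraries. Among the higher ones were *Rpph1*, the RNA of RNase P, from 474, 431 and 414 to 2030 and 1729 (log2 change 2.1), the imprinted *Meg3* (4.26) and *Malat1* (0.64, adjusted p = 0.00945). The call of *Malat1* was lost without the second condensing library (adjusted p = 0.073) or either spermatozoa library (0.0764 and 0.0752). Over the whole annotation, long noncoding RNAs were lower in 467 of 765 cases and higher in 114 (median -1.48), against 4855 and 5380 of 14188 protein-coding genes (median 0.06).

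Shorter transcripts were lower more often. In quartiles of exon length, haploid-rising genes were lower in 90.5% of the shortest (243 to 1388 bases), 81% and 74.4% of the middle quartiles and 58.7% of the longest (5249 to 35004 bases), with medians of -2.29, -2.06, -1.46 and -0.71. All tested genes showed a smaller spread, with medians of -0.63, 0.04, 0.17 and 0.22. The short *Odf1*, with 1105 bases of exon, and *Smcp*, with 913, stood apart from *Tnp1* with 437 and *Prm1* with 571. With a trend on GC content and length removed, 941 haploid-rising genes were lower and 114 higher.

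The H2al2 KO spermatozoa library, which took no part in the test, was set against the 3 H2al2 KO condensing libraries. It lay above all of them for 4766 (86.1%) of the genes called higher in wild type, against 45.4% of all tested genes, and below all for 5049 (93.3%) of those called lower, against 48.4%. *Odf1* had 6853 normalized CPM there, against 2596 to 3989 in KO condensing spermatids, and *Crisp1* 514. This library stood apart from the wild-type spermatozoa, with 8.86% of counts on haploid-rising genes, 15.9% on *Rn45s*, 7063 normalized CPM of *Fn1* and 1977 of *Cd74*. With 1 library, H2al2 genotype and the other cells it holds cannot be told apart.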

How the data were processed

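Sample groups were taken from the labels. Per the submitters' processing notes and the study's methods, the authors made libraries from ribosomal RNA-depleted total RNA with a stranded kit, aligned reads to mm10 with STAR 2.7.11b, and counted them with HTSeq over exons on the reverse strand, without multiply aligned reads. They deposited raw read counts per gene, not normalized. Each file lists 24456 genes and 5 rows that name no gene, which hold 40.2% to 48.5% of the reads in the 5 libraries and were left out. The 5 libraries were compared with edgeR 4.0.16 (R 4.3.3; quasi-likelihood test, TMM, filterByExpr, no covariates, Benjamini-Hochberg, adjusted p under 0.05). An exact permutation test of 2 against 3 libraries cannot go below p = 0.1 and was not made. A gene at 0 was bounded with 3 reads over its group. On simulated counts, 89% of 2-fold and 100% of 4-fold changes of genes with a mean of at least 50 reads were recovered, with 11 unchanged genes among 200 calls. The simulation changed 200 genes, with 14809 tested, whereas 72.4% of the genes tested were called in the data. A comparison in which most genes differ was not simulated. Positions came from RefSeq GRCm38.p6, the assembly of mm10 (23218 genes matched by symbol, 1114 by an older symbol, 124 not), and exon lengths from GENCODE. *H2afb1* was matched to RefSeq *H2al2a* through older symbols.

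The members and the 33 gene lists were chosen with earlier results of these data known. Named genes were 17 set genes, the 10 largest changes per direction among called genes with at least 10 normalized CPM and no overlap, the 10 with most reads or highest RPKM in spermatozoa, and each list's most abundant member and largest changes. Not all are given. Any other gene, such as list members named because they ran against their list, was chosen after its values were seen. There were 16 alternatives, among them the DESeq2 1.42.0 Wald test, and 1 added after the data were seen (centring on haploid-rising genes). No 2 replicates were duplicates: differences exceeded sampling noise in every pair. Of lists not described in the text, whose tested members often passed the filter through 1 group only, 1 of 4 red blood cell, 11 of 13 endothelial, 7 of 12 myoid and 0 of 5 accessory gland markers were lower and 3, 1, 2 and 4 higher. Of 80 nuclear oxidative phosphorylation genes, 29 were lower and 19 higher.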

Additional observations from a re-analysis of the deposited data

Results flagged for a closer look

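Among 98 named genes, 10 moved one way in wild type and the other way in the H2al2 KO library, which was a single library, so the difference was not tested. For 9 of them, of which *Oaz3* was not called in wild type, both wild-type spermatozoa libraries were above the 3 wild-type condensing libraries, and the KO spermatozoa library was below the 3 KO condensing libraries. In the KO spermatozoa library *Hk1* had 1818 normalized CPM (3931 to 5745 in KO condensing spermatids), *Sord* 1086 (1924 to 2664), *Pebp1* 1557 (1634 to 2191), *Oaz3* 608 (2594 to 3860), *Gstm5* 716 (2007 to 2798), *Spata18* 901 (1088 to 1689), *Spag16* 149 (160 to 172), *Tssk6* 447 (456 to 790) and *Klhl10* 447 (679 to 947). *Clu* was lower in wild-type spermatozoa and had 275 in the KO library, above 183 to 219 in KO condensing spermatids. The gaps of *Pebp1* and *Tssk6* were small beside the spread of the KO condensing libraries. That library also held 8.86% of its counts on haploid-rising genes, against 19.3% and 17.7% in wild type, and the part of this in the 10 genes was not tested.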

How the results depend on the processing

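Calls of 5533 genes higher and 5412 lower stayed within 1.5 times these counts under 15 of 16 alternatives, each replicate left out included. In the remaining one, tested against a 2-fold change, 3363 and 2852 were called. With haploid-rising genes centred, an alternative added after seeing the data, 11233 were higher and 916 lower, so that 92.5% of calls were upward in place of 50.6%. That scaling adds about 1.71 to every gene, so its counts and signs follow from the shift and bear on the choice of reference, not on stability. Leaving out each replicate gave 4870 to 5546 higher and 4837 to 5428 lower. The replicate numbers did not pair the libraries (correlation of replicate differences between the stages -0.00871 across 15116 genes), and with the replicate block 5479 and 5442 were called.

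With haploid-rising genes centred, log2 changes became 0.77 for *Prm2*, 0.21 for *Tnp2*, 0.17 for *Akap4*, 1.24 for *Gapdhs*, 1.51 for *mt-Rnr1*, 0.39 for *Dnah8*, 0.46 for *Ace*, 1.51 for *Crisp2*, 0.65 for *Pabpc1*, 1.25 for *Clu*, 1.14 for *ND2* and 0.16 for *Rpl10l*, all below 0 otherwise except *mt-Rnr1* in the GC and length fit given next. Leaving out each replicate moved *Smcp*, at 0.09 and not called, between -0.05 and 0.24 (-0.02 without the second condensing library). With the GC and length trend removed, which moved the median of all genes to -0.27, *mt-Rnr1* was at 0.89 and *Hk1* at -0.22. The causes were not tested. Of 1637 values of named genes under alternatives, 1566 kept direction and side of the threshold. With at least 10 reads asked of every library, most markers of other cell types were not tested. With 2 spermatozoa libraries of lower depth, low genes have wide errors, and 1 library decides several calls.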
